A study of Mus musculus with 2 samples.

Results

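The 39 Hox genes of the mouse, taken as every gene of the deposited matrices whose symbol is Hox followed by a cluster letter from a to d and a number, were measured among 32285 genes in 2 droplet libraries of soft tissue around the Achilles tendon. The Hoxa cluster gave 11 of the 39 genes, the Hoxb cluster 10, the Hoxc cluster 9 and the Hoxd cluster 9. The injured library came from the tendon 7 days after a burn and tenotomy (cutting of the tendon), and the uninjured library came from the contralateral tendon of mice given the same procedure. Both libraries are labelled Vegfd-OE and share 1 genotype, Hoxa11 wt/CreERT2 together with R26 wt/LSL-rtTA and TetO-Vegfd. With these alleles, Cre made from the Hoxa11 locus opens the way for a tetracycline-controlled Vegfd transgene, so 1 Hoxa11 copy carried an inducible recombinase in both libraries. The agents that induce them are not named in the labels, and libraries of control mice were not analysed here. The series text gives control and Vegfd-OE mice of both sexes, 8 to 12 weeks old at the procedure and 5 per group, without saying how many were pooled for a library. Each group is 1 library, so no difference below has a replicate check and no test was made.

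Hox proteins are homeodomain transcription factors whose genes lie in 4 clusters, arranged so that genes with low numbers are used toward the head and genes with high numbers toward the tail and the tips of the limbs. Genes with the same number in different clusters are paralogs. In the mouse hindlimb, paralogs 10 are needed for the upper segment, paralogs 11 for the middle segment (the tibia and fibula) and paralogs 13 for the foot. Adult fibroblasts of different body sites are known to keep distinct sets of active Hox genes.

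The 250 bases before the start site are shown for 5 members whose levels below separate the cell classes. Hoxa10, Hoxa11 and Hoxd11 were used in mesenchymal cells and nearly silent in vascular endothelium, and Hoxb4 and Hoxb8 showed the opposite pattern. RefSeq (GRCm38.p6) gave a promoter for 22 of the 39 members. The Hoxa10 window is chr6:52240855-52241104 and the Hoxa11 window chr6:52245811-52246060, both on the minus strand. The Hoxd11 window is chr2:74679308-74679557, the Hoxb4 window chr11:96318017-96318266 and the Hoxb8 window chr11:96281655-96281904, all on the plus strand. Capitals mark matches on either strand to TGATNNAT (the core bound by a Hox and a Pbx protein together), to GGAAGT (an ETS core) or to TTTATG (a core of posterior Hox and caudal-type proteins).
Hoxa10: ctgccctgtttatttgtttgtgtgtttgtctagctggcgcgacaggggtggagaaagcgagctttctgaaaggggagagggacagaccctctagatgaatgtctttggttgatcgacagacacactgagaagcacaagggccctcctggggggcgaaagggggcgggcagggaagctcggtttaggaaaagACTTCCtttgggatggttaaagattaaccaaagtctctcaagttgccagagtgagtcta
Hoxa11: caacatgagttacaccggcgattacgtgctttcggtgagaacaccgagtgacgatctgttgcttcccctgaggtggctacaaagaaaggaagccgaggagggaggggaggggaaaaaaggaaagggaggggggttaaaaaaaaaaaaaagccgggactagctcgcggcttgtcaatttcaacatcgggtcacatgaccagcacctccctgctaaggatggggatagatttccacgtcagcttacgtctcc
Hoxd11: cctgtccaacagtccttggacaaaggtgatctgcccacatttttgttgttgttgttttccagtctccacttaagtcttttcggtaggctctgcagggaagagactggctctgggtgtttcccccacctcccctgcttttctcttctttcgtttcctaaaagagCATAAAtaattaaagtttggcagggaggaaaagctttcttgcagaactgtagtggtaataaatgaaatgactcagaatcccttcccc
Hoxb4: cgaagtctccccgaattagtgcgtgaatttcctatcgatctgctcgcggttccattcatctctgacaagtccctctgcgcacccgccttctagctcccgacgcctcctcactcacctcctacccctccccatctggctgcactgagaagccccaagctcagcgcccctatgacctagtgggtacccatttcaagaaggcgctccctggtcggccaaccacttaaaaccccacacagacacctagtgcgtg
Hoxb8: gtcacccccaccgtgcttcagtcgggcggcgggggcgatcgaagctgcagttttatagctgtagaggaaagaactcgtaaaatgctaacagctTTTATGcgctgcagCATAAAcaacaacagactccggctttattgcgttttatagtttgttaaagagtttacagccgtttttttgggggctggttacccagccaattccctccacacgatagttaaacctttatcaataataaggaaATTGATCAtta
The 2 endothelial examples differed: Hoxb8 held TGATNNAT next to its start site and 2 matches to TTTATG, and Hoxb4 held none of the 3 motifs. Hoxa10 held 1 match to GGAAGT, Hoxd11 held 1 to TTTATG, and Hoxa11 held none. No 2 matches overlapped in these windows. TGATNNAT occurred in 3 of the 22 Hox promoters (Hoxa2, Hoxb1 and Hoxb8) and in 7.68% of 32851 mouse promoters of the same length. TTTATG occurred in 5 of the 22 (Hoxa7, Hoxb8, Hoxd3, Hoxd4 and Hoxd11) and in 10.8% of all promoters, and GGAAGT in 2 of the 22 (Hoxa10 and Hoxc4) and in 19.7% of all. These matches are letters in a window and were not set against any binding data.

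The injured library kept 9151 of 10691 barcodes and the uninjured library 4700 of 6850, with medians of 17492 and 15772 unique molecular identifiers (UMIs, each a captured RNA molecule) per kept cell. Over 10% mitochondrial UMIs were found in 7.49% of injured and 26.4% of uninjured barcodes. The libraries shared 19 barcodes, 8 of them among kept cells. Cells were grouped without any Hox gene and named from marker genes, and levels are counts per 1000000 UMIs (CPM) of all cells of a class in a library. Since only the 3′ end of each RNA was counted, no division by gene length was made. Intervals in parentheses are 95% exact intervals for counting error only. The compared classes were mesenchymal cells (2371 injured and 1354 uninjured), mural cells (445 and 181), vascular endothelial cells (1218 and 1618), lymphatic endothelial cells (84 and 84), Schwann cells (100 and 170) and immune cells (4317 and 573). Satellite cells, the stem cells of muscle, numbered 17 injured and 274 uninjured, and keratinocytes 306 injured and 0 of 4700 uninjured (exact 95% interval up to 0.0785% of cells), so their levels are given in 1 library. All 15 fibroblast markers stood at 10 CPM or more in the mesenchymal class of both libraries, as did all 12 vascular endothelial markers in the vascular class, all 9 smooth muscle and all 10 pericyte markers in the mural class, and all 13 Schwann markers in the Schwann class. Of 8 lymphatic markers, 7 stood at 10 CPM or more in injured lymphatic cells, where Ackr4 was at 0, and 8 in uninjured ones. The clusters were named from these same lists, so the marker levels describe the classes and are no check of their names.

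Hox RNA was detected in each class, most in endothelium and least in immune cells. Kept cells held 50305 Hox UMIs in the injured and 25064 in the uninjured library. The 39 members together reached 380 CPM in injured and 363 CPM in uninjured vascular endothelium, 356 and 467 CPM in lymphatic endothelium, 289 and 331 CPM in mural cells and 206 and 253 CPM in mesenchymal cells. Schwann cells held 61.5 CPM in the injured and 74.9 CPM in the uninjured library, and immune cells 17.2 and 21.3 CPM. Of the 39 members, 27 reached 10 CPM in at least 1 compared class. Among the compared classes, 9 of these had their highest level in mural cells, 8 in vascular endothelium, 8 in lymphatic endothelium and 2 (Hoxa11 and Hoxd11) in mesenchymal cells. Outside the compared classes, Hoxa9 was higher still in injured keratinocytes, at 52.0 CPM. Hoxc9, Hoxc10 and Hoxc11 were higher still in uninjured satellite cells, at 34.6, 57.8 and 25.4 CPM. The other 12 of the 39 members included Hoxa13, Hoxb13, Hoxc12, Hoxc13, Hoxd12 and Hoxd13, from the posterior ends of the clusters. None of those exceeded the 3.48 CPM of Hoxa13 in injured mural cells in a compared class, and none of the 39 lacked UMIs altogether.

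**Figure D1:**
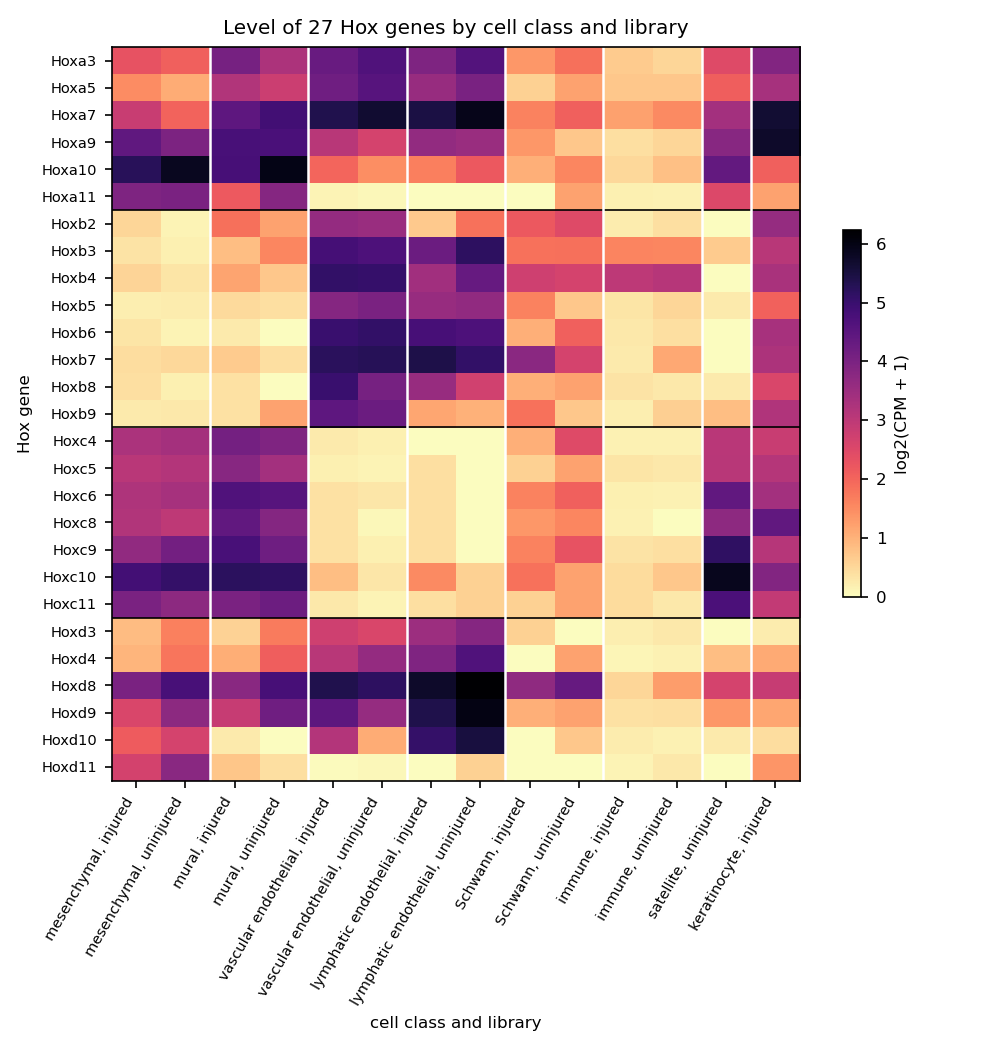
Level of each of the 27 Hox genes that reached 10 CPM in a compared class, as log2(CPM + 1), in each cell class of the injured and the uninjured library, with the satellite class in the uninjured and the keratinocyte class in the injured library only. Lines separate the Hoxa, Hoxb, Hoxc and Hoxd clusters. The Hoxb block is dark in endothelial columns and pale in mesenchymal and mural columns, and the Hoxc block shows the reverse.

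The Hoxb and Hoxc clusters divided the tissue between endothelium and the mesenchymal lineages. The Hoxb members summed to 202 CPM in injured and 187 CPM in uninjured vascular endothelium, but to 2.44 and 1.55 CPM in mesenchymal cells. The vascular level was 82.9 times the mesenchymal level in the injured library (73.5 to 94.0) and 120 times in the uninjured library (89.6 to 166). Hoxb4, studied in blood stem cells for its role in their self-renewal, held 32.9 CPM in injured and 32.2 CPM in uninjured vascular endothelium, against 0.470 and 0.247 CPM in mesenchymal cells. In vascular endothelium Hoxb7 held 35.9 and 37.5 CPM, Hoxb6 30.9 and 33.0 CPM and Hoxb3 27.2 and 24.9 CPM in the injured and the uninjured library. From Hoxb2 to Hoxb9 no member stood below 10.7 CPM in the vascular class, and the 2 ends of the cluster, Hoxb1 and Hoxb13, were at 0.0324 CPM or less there.

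The Hoxc members ran the other way. Their sum was 2.30 CPM in injured and 0.971 CPM in uninjured vascular endothelium, with 87.5 and 96.1 CPM in mesenchymal cells. The mesenchymal level was 38.1 times the vascular level in the injured library (31.2 to 47.0) and 99.0 times in the uninjured library (69.2 to 147). The named mural cells, which wrap the vessels, sided with the mesenchymal class and not with the endothelium they cover. Their Hoxc sum was 153 CPM in injured and 129 CPM in uninjured cells, and their Hoxb sum 6.39 and 5.89 CPM. Cluster 12, a group of 122 injured and 278 uninjured cells left unnamed for its pericyte and endothelial markers, is not in this class. Its Hoxb sum was 163 and 150 CPM and its Hoxc sum 58.8 and 43.9 CPM. The statement therefore holds for the named mural cells only. Hoxc10, a member used in the hindlimb but not the forelimb of the mouse embryo, was the highest Hoxc gene in the mural and mesenchymal classes. It held 35.6 and 34.1 CPM in injured and uninjured mural cells and 27.7 and 32.4 CPM in mesenchymal cells. Hoxc10 and Hoxc5 share exon sequence on the same strand in the GENCODE M21 annotation, as do Hoxd3 and Hoxd4, so reads could have been split within each pair.

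The same division was seen cell by cell. Among injured vascular endothelial cells 84.2% held a Hoxb UMI and no Hoxc UMI, 0.411% held Hoxc alone and 3.04% held both. Among uninjured vascular endothelial cells these shares were 78.9%, 0.185% and 1.30%. Among mesenchymal cells Hoxc alone was found in 79.6% of injured and 66.3% of uninjured cells, and Hoxb alone in 0.337% and 0.665%. After thinning each cell to 5000 UMIs, which left out 91 injured and 179 uninjured vascular and 100 injured and 127 uninjured mesenchymal cells, a Hoxb UMI was found in 64.2% of injured and 56.0% of uninjured vascular cells. The same share was 1.01% and 0.896% in mesenchymal cells. How much of it came from free RNA, misplaced cells or low expression was not tested. Thinned Hoxc shares were 33.6% and 37.2% in mesenchymal cells and 0.976% and 0.625% in vascular cells. Without thinning, the median depth was 25020 and 14443 UMIs in vascular and 44733 and 19138 UMIs in mesenchymal cells.

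**Figure D2:**
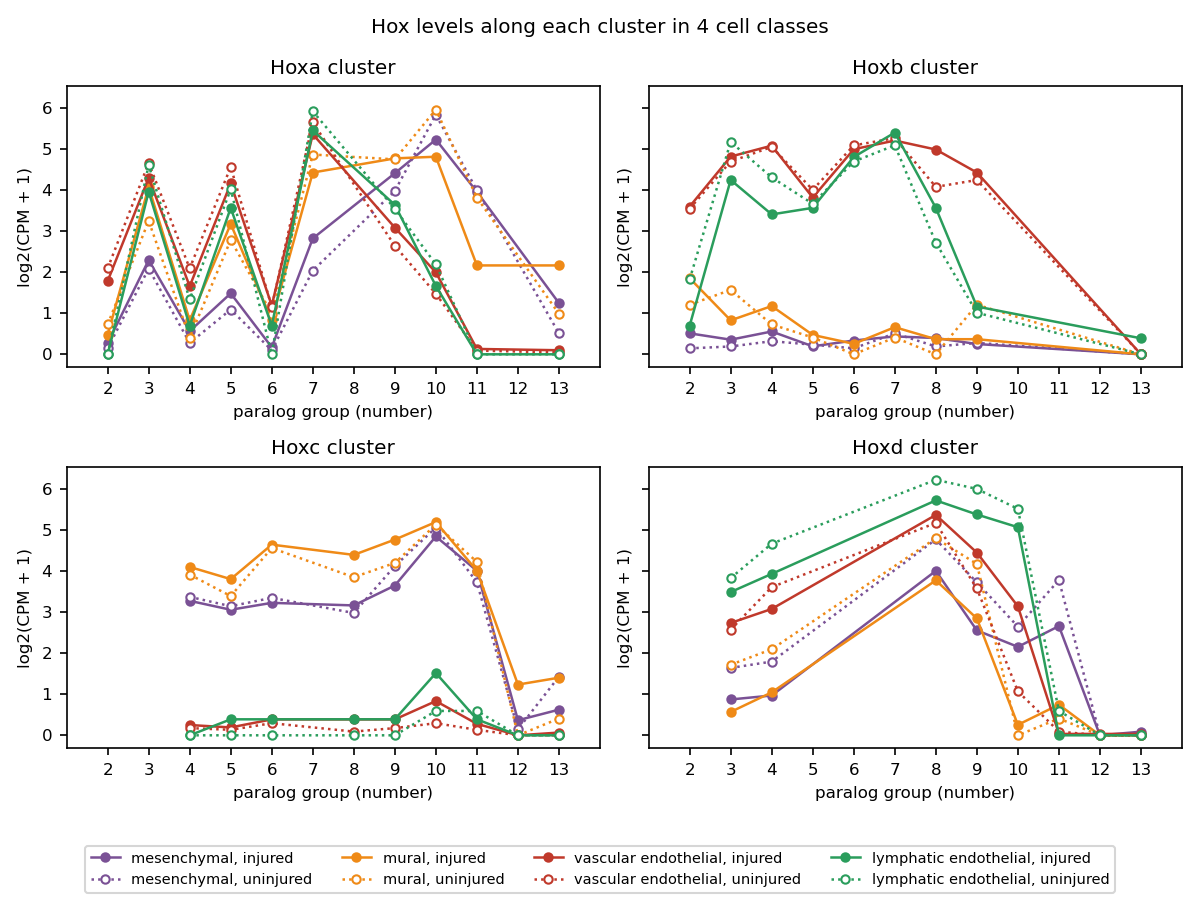
Level of each Hox gene, as log2(CPM + 1), against its paralog number, from number 2 on, in mesenchymal, mural, vascular endothelial and lymphatic endothelial cells. Filled points and solid lines are the injured library and open points and dotted lines the uninjured library. In the Hoxa panel the endothelial lines peak at number 7 and the mesenchymal lines at number 10.

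Hoxa genes were used by all 4 of these classes, but at different positions along the cluster. The Hoxa sum was 92.9 CPM in injured and 112 CPM in uninjured vascular endothelium and 85.7 and 94.3 CPM in mesenchymal cells, so the totals were close. In vascular endothelium Hoxa7 led with 40.1 and 49.2 CPM, followed by Hoxa3 with 18.7 and 24.3 CPM and Hoxa5 with 16.9 and 22.6 CPM. Mesenchymal cells held 6.07 and 3.11 CPM of Hoxa7 and 36.5 and 56.1 CPM of Hoxa10. Vascular endothelium held 2.99 and 1.78 CPM of Hoxa10. Hoxa9, which lies between Hoxa7 and Hoxa10, stood at 20.3 and 14.8 CPM in mesenchymal cells and 7.49 and 5.24 CPM in vascular endothelium. Mural cells carried both ends, with 20.5 and 28.2 CPM of Hoxa7 and 27.1 and 61.2 CPM of Hoxa10 in the injured and the uninjured library. Hoxa3 and Hoxa7 have exons that overlap antisense transcripts, and no source used here says whether the counting used strand.

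Hoxa11, the locus that carries the recombinase, was found in mesenchymal and mural cells and was nearly undetected in endothelium. It held 14.5 CPM in injured mesenchymal cells (13.8 to 15.3, from 1608 UMIs) and 14.9 CPM in uninjured mesenchymal cells (13.5 to 16.4, from 423 UMIs). The 2 intervals overlapped. With cluster 13, described below, left out of the mesenchymal class, the log2 ratio of Hoxa11, injured over uninjured, was -0.28. Mural cells held 3.48 CPM in the injured library (2.44 to 4.82) and 13.1 CPM in the uninjured library (9.36 to 17.8), where the interval overlapped that of mesenchymal cells. Vascular endothelium held 4 Hoxa11 UMIs in the injured and 2 in the uninjured library, and lymphatic endothelium 0 in both. In lymphatic endothelium 3 counts would be 0.930 CPM in the injured and 1.53 CPM in the uninjured library. The exact intervals for 0 UMIs reach 1.14 and 1.88 CPM there. Satellite cells of the uninjured library held 4.69 CPM. Thinned to 5000 UMIs, 6.25% of injured and 6.76% of uninjured mesenchymal cells held a Hoxa11 UMI, against 0.0962% of injured and 0 of 546 uninjured immune cells (interval up to 0.673%). Hoxa11 overlaps the antisense RNA Hoxa11os, which held 19.6 CPM in injured and 11.1 CPM in uninjured mesenchymal cells and 3.77 and 14.1 CPM in mural cells. The strand setting of the counting was not stated, and whether reads of the pair were kept apart was not checked. The Vegfd transgene of these mice needs Cre made from this locus and is then under tetracycline control, while the endogenous Vegfd gene is not. Vegfd held 194 CPM in injured and 65.1 CPM in uninjured mesenchymal cells. It held 42.9 and 11.1 CPM in mural cells and 3.34 and 2.36 CPM in vascular endothelium. Transgenic and endogenous Vegfd RNA cannot be told apart in these counts.

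Hoxd genes were highest in lymphatic endothelium. Their sum was 149 CPM in injured and 220 CPM in uninjured lymphatic endothelium, which was 1.82 times the vascular level in the injured library (1.65 to 2.00) and 3.47 times in the uninjured library (3.12 to 3.85). Hoxd8 held 51.8 CPM in injured and 73.7 CPM in uninjured lymphatic endothelium, Hoxd9 40.6 and 63.1 CPM, and Hoxd10 32.6 and 44.8 CPM. The lymphatic level of Hoxd10 was 4.16 times the vascular level in the injured library (3.31 to 5.20) and 40.7 times in the uninjured library (27.1 to 62.3). Hoxb9 ran the other way between the 2 endothelia, with 1.24 and 1.02 CPM in lymphatic and 20.5 and 17.96 CPM in vascular cells of the injured and the uninjured library. Hoxb8 was also lower in lymphatic cells, with 10.9 and 5.59 CPM against 30.7 and 15.9 CPM in vascular cells. Lymphatic counts came from 84 cells in each library, so their intervals are wide.

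Paralogs 11 were used in mesenchymal and mural cells and little in endothelium, and paralogs 12 and 13 were low in all compared classes. Paralogs 11 together held 34.9 CPM in injured and 39.9 CPM in uninjured mesenchymal cells, 19.3 and 31.1 CPM in mural cells and 0.332 and 0.227 CPM in vascular endothelium. Hoxd11, which acts with Hoxa11 in the limb, was confined to mesenchymal cells among the 6 compared classes, with 5.32 and 12.7 CPM there and at most 0.677 CPM in any other compared class. Paralogs 12 and 13 held 2.27 and 2.22 CPM in mesenchymal cells and 6.48 and 1.31 CPM in mural cells. The exception was Hoxc13, a regulator of hair and nail keratins, which held 42.8 CPM in the keratinocytes of the injured library.

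The classes with levels in 1 library had their own combinations. Satellite cells of the uninjured library carried Hoxc members at 165 CPM, led by Hoxc10 at 57.8 CPM and Hoxc9 at 34.6 CPM, with 56.6 CPM of Hoxa, 7.81 CPM of Hoxd and 1.76 CPM of Hoxb. Keratinocytes of the injured library carried Hoxa at 131 CPM and Hoxc at 115 CPM and, unlike mesenchymal cells, also Hoxb at 61.2 CPM. Both Hoxb and Hoxc UMIs were found in 56.5% of these 306 keratinocytes. Hoxa9 at 52.0 CPM and Hoxa7 at 48.6 CPM were their highest members.

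Schwann cells, the glia of nerves, and immune cells held little Hox RNA. In Schwann cells Hoxd8 stood at 11.9 CPM in the injured and 18.9 CPM in the uninjured library and Hoxb7 at 12.4 and 5.21 CPM. In immune cells Hoxb4 was highest, with 7.05 CPM in the injured and 7.62 CPM in the uninjured library, and Hoxb3 followed with 2.02 and 1.96 CPM. Hoxb4 was present in every immune cluster of 50 cells or more, from 3.03 CPM in the neutrophil cluster to 9.54 CPM in the dendritic cell cluster of the injured library. Thinned to 5000 UMIs, a Hoxb4 UMI was found in 3.14% of injured and 4.21% of uninjured immune cells, against 0.220% and 0.244% of mesenchymal cells. Hoxa7 stood at 10.0 CPM in injured dendritic cells (44 UMIs, 7.26 to 13.4) and 1.84 CPM in uninjured ones (4 UMIs, 0.502 to 4.71), and at 3.77 CPM or less in the other immune clusters.

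Injury was then compared within each class. A member counted as eligible when the mean of its 2 levels was at least 5 CPM, and as changed when the ratio of CPM + 1 passed 2-fold. In mesenchymal cells 13 of the 39 members were eligible, 0 were more than 2-fold higher and 2 were more than 2-fold lower in the injured library. Over all 10832 eligible genes, 5.55% were higher and 8.31% lower by this rule. The median log2 ratio was -0.12 over the eligible members and -0.07 over all genes. Hoxd9 held 4.88 CPM in injured and 12.2 CPM in uninjured mesenchymal cells, a ratio of 0.399 (0.348 to 0.458). Hoxd11 held 5.32 and 12.7 CPM, a ratio of 0.417 (0.366 to 0.477). Hoxd8, their neighbour, held 15.1 and 26.3 CPM, a ratio of 0.572, and the whole Hoxd sum was 30.6 CPM in injured and 61.2 CPM in uninjured mesenchymal cells (ratio 0.5, 0.472 to 0.531). Mesenchymal cells were also picked cell by cell with marker gates. The gate asked for a Pdgfra UMI and no UMI of Ptprc, Cdh5, Rgs5, Sox10, Pax7, Krt14 or Pecam1. It took 739 injured and 662 uninjured cells, fewer than the class and not the same set. Among these, 0 of 12 eligible members passed 2-fold, against 6.29% higher and 8.09% lower of 10643 genes. The log2 ratio was then -0.0784 for the Hoxd sum and 0.27 for Hoxd11. The other clusters moved less, with ratios of 0.909 for Hoxa and 0.910 for Hoxc. Within Hoxa, Hoxa10 stood at 0.651 of its uninjured level and Hoxa9 at 1.37 times its uninjured level.

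**Figure D3:**
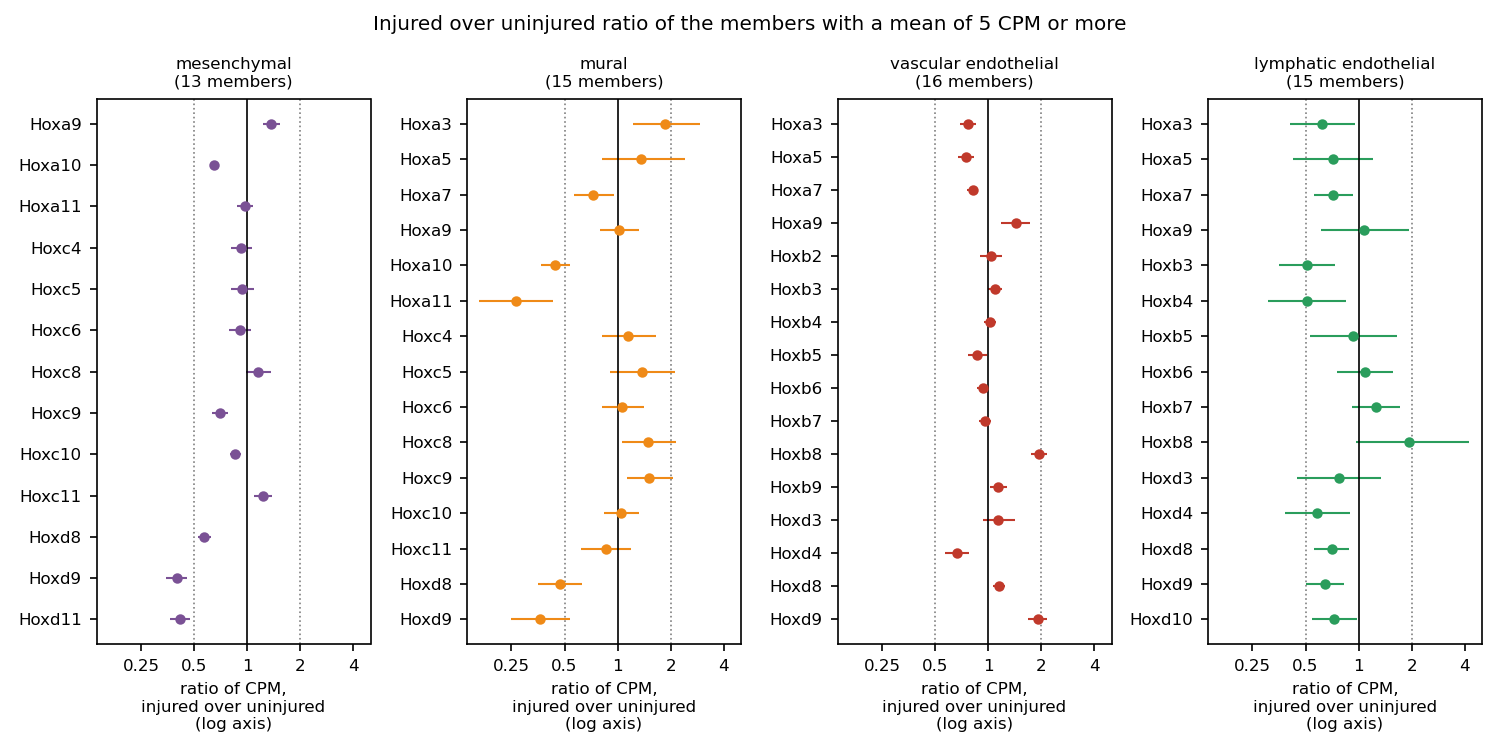
Ratio of CPM, injured over uninjured, of the eligible members in mesenchymal, mural, vascular endothelial and lymphatic endothelial cells, on a log axis. Points are ratios of the 2 libraries, bars are 95% exact intervals for counting error, and dotted lines mark 2-fold. Hoxd9 lies left of 0.5 in mesenchymal and mural cells and right of 1 in vascular endothelium.

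The mesenchymal class was held by different clusters in the 2 libraries, and 1 of them carried much of the Hoxd RNA. Most injured mesenchymal cells lay in cluster 2 (1105 cells, led by Tnc, Cthrc1 and Postn, with the tenocyte markers as its best list) and cluster 5 (808 cells, led by Sfrp2 and Col14a1), and most uninjured ones in cluster 6 (700 cells, led by Gsn, Clec3b and Pi16) and cluster 13 (367 cells, led by Mgp, Fmod, Thbs4 and Tnmd, also with the tenocyte markers as its best list). Cluster 13 held 16 injured cells. Uninjured cluster 13 carried Hoxd members at 123 CPM, with Hoxd8 at 49.5 CPM (44.9 to 54.4), Hoxd11 at 32.7 CPM (29.0 to 36.8), Hoxd9 at 19.2 CPM (16.4 to 22.3) and Hoxd10 at 11.8 CPM (9.62 to 14.4). In the other mesenchymal clusters of 50 cells or more, Hoxd11 was between 0 and 8.04 CPM and the Hoxd sum between 11.5 and 52.4 CPM. The 9 tenocyte markers summed to 2406 CPM in injured and 5630 CPM in uninjured mesenchymal cells, with none at 0. With cluster 13 left out, a choice made after seeing the data, 0 members passed 2-fold, against 6.72% higher and 8.28% lower of 10737 genes. Hoxd9 then stood at a log2 ratio of -0.80, Hoxd8 at -0.11 and Hoxd11 at 0.30. Hoxa10 stood at -0.69, and Hoxa11 at -0.28, outside the counting interval of its ratio in the whole class. Fewer cells of this cluster and less Hoxd RNA per cell cannot be told apart.

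**Figure D4:**
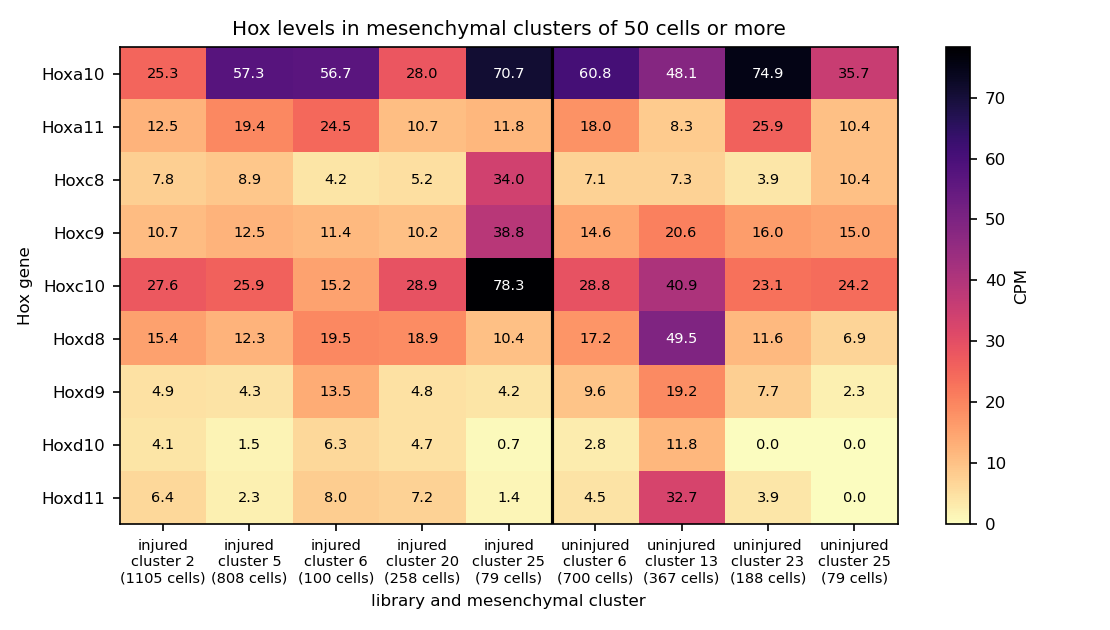
Level in CPM of 9 Hox genes in each mesenchymal cluster with 50 or more cells in a library, injured clusters left of the line and uninjured clusters right of it. Uninjured cluster 13 holds the highest Hoxd8, Hoxd9, Hoxd10 and Hoxd11 levels, and injured cluster 25 the highest Hoxc levels.

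Mesenchymal clusters present in both libraries gave other values. In cluster 6, Hoxd11 held 8.04 CPM in injured and 4.49 CPM in uninjured cells (19 and 73 UMIs), Hoxd9 13.5 and 9.60 CPM, and Hoxa7 10.1 and 2.77 CPM (ratio 3.66, 2.14 to 6.14). Hoxa7 was the only one of its 14 eligible members past 2-fold, against 3.27% higher and 3.06% lower of 10558 genes in that cluster. The Hoxc sum of cluster 6 was 74.0 CPM in injured and 96.6 CPM in uninjured cells (ratio 0.766, 0.652 to 0.897). Hoxc10 held 15.2 and 28.8 CPM there (ratio 0.529, 0.366 to 0.743), while Hoxc4 and Hoxc6 had ratios of 1.17 and 1.32. Cluster 25, led by Apod, Gpc3 and Sfrp5, had 79 cells in each library. Its place in the mesenchymal class is weak. The fibroblast markers, its best list, had a mean log2 ratio of 0.242 over all other cells, against 1.98 in cluster 6. Schwann markers came second at 0.012. It held the most Hox RNA of the mesenchymal clusters in the injured library, 469 CPM against 208 CPM in the uninjured library. Its Hoxc sum was 265 CPM in injured and 117 CPM in uninjured cells (ratio 2.26, 1.81 to 2.84), and Hoxa9 stood at 52.7 and 9.20 CPM (76 and 8 UMIs). In that cluster 6 of 13 eligible members were more than 2-fold higher (Hoxa9, Hoxc5, Hoxc8, Hoxc9, Hoxc10 and Hoxc11) and 0 lower. Their uninjured counts ran from 8 UMIs for Hoxa9 to 21 UMIs for Hoxc10. Of all 11164 eligible genes there, 13.8% were higher and 7.35% lower. Hoxa10 varied among injured clusters from 25.3 CPM in cluster 2 to 70.7 CPM in cluster 25. In the uninjured library it varied from 35.7 CPM in cluster 25 to 74.9 CPM in cluster 23, a cluster led by Gsn and Inmt.

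In mural cells 15 members were eligible, 0 were higher and 4 were lower in the injured library, against 9.46% higher and 8.39% lower of 10862 genes. The 4 were Hoxa10, Hoxa11, Hoxd8 and Hoxd9. Hoxa10 held 27.1 CPM in injured and 61.2 CPM in uninjured mural cells (ratio 0.442, 0.366 to 0.535). Hoxa11 held 3.48 and 13.1 CPM from 36 and 40 UMIs (ratio 0.266, 0.165 to 0.428). Hoxd8 held 12.7 and 26.9 CPM and Hoxd9 6.19 and 17.03 CPM. The 7 eligible Hoxc members, Hoxc4 to Hoxc11, lay between ratios of 0.854 and 1.51, and Hoxa3 was at 15.9 and 8.51 CPM (ratio 1.86, 1.23 to 2.94). The median log2 ratio was 0.06 over the eligible members and 0.05 over all genes.

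Injured mural cells lay mostly in cluster 10 (396 of 445, led by Rgs5 and Acta2) and uninjured ones mostly in cluster 26 (106 of 181, led by Myh11 and Acta2). The 9 smooth muscle markers summed to 16529 CPM in injured and 34684 CPM in uninjured mural cells, and the 10 pericyte markers to 8516 and 5332 CPM. Their part in the result was not tested. Within cluster 10, which held 75 uninjured cells, Hoxa11 was at 2.71 CPM in injured and 15.04 CPM in uninjured cells (25 and 16 UMIs, ratio 0.180, 0.0925 to 0.361) and Hoxd9 at 4.99 and 12.2 CPM (46 and 13 UMIs, ratio 0.408, 0.217 to 0.824). Hoxa10 was at 26.1 and 49.8 CPM and Hoxd8 at 10.6 and 18.8 CPM there, inside 2-fold on the CPM + 1 scale. Of all 10870 eligible genes in cluster 10, 9.25% were higher and 9.39% lower. Counting cluster 12, a mixture of pericyte and endothelial markers, as mural gave 3 members past 2-fold of 23 eligible, 1 higher and 2 lower and none of them among these 4, against 6.22% higher and 6.93% lower of 10960 genes. With each library clustered alone, which put 448 injured and 462 uninjured cells in the mural class, 13 of 19 eligible members passed 2-fold, 6 higher and 7 lower. The shares of all 11017 genes were then 9.18% higher and 11% lower. Of the 4 members, Hoxd8 alone was among those 13, and Hoxa10 stood at a log2 ratio of 0.0622.

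In vascular endothelium 16 members were eligible and 0 passed 2-fold in either direction, against 6.79% higher and 5.33% lower of 10390 genes. The median log2 ratio was 0.04 for both the members and all genes. The nearest to the limit were Hoxb8 and Hoxd9. Hoxb8 held 30.7 CPM in injured cells (29.1 to 32.5) against 15.9 CPM in uninjured cells (14.5 to 17.4), a ratio of 1.93 (1.74 to 2.15), so these 2 intervals did not overlap. Hoxd9 held 20.9 and 10.9 CPM, a ratio of 1.91 (1.68 to 2.17). Hoxd10 fell under the 5 CPM minimum at a mean of 4.46 CPM, and held 7.82 CPM in injured and 1.10 CPM in uninjured cells (330 and 34 UMIs, ratio 7.11, 4.99 to 10.4). The other Hoxb members stayed close to their uninjured levels, with ratios between 0.869 for Hoxb5 and 1.14 for Hoxb9. Hoxa3, Hoxa5 and Hoxa7 had ratios of 0.768, 0.747 and 0.816, and Hoxd4 0.665. The low Hoxc sum of 2.30 CPM in injured and 0.971 CPM in uninjured endothelium had a ratio of 2.37 (1.56 to 3.70). The 15 fibroblast markers summed to 1262 CPM in injured and 777 CPM in uninjured vascular endothelium, with none at 0, and their part in this ratio was not tested.

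Injured vascular endothelial cells lay mostly in cluster 8 (474 cells, led by Plvap and Aplnr) and cluster 9 (339 cells, led by the venular genes Selp and Ackr1), and uninjured ones in cluster 1 (1128 cells, led by the capillary genes Cd36 and Gpihbp1). In each of the 5 vascular clusters, Hoxb8, Hoxd9 and Hoxd10 were higher in the injured library, though Hoxd10 rested on 1 to 3 uninjured UMIs in 4 of them. Hoxb8 held 26.8 CPM in injured and 14.6 CPM in uninjured cells of cluster 1 (ratio 1.84, 1.34 to 2.48) and 25.6 and 13.4 CPM in cluster 17, the cycling cells (ratio 1.92, 1.36 to 2.76). In cluster 9 it held 29.2 and 23.2 CPM and in cluster 21, led by the arterial genes Sema3g and Sox17, 20.5 and 16.6 CPM, with intervals of the ratio that included 1. Hoxd9 held 22.1 and 6.96 CPM in cluster 8 (396 and 6 UMIs) and 30.8 and 24.6 CPM in cluster 9. Hoxd10 was highest in cluster 9, with 15.2 and 7.73 CPM (133 and 28 UMIs, ratio 1.96, 1.30 to 3.06). In cluster 21 it held 9.42 CPM in injured and 0.301 CPM in uninjured cells, from 17 UMIs and 1 UMI.

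**Figure D5:**
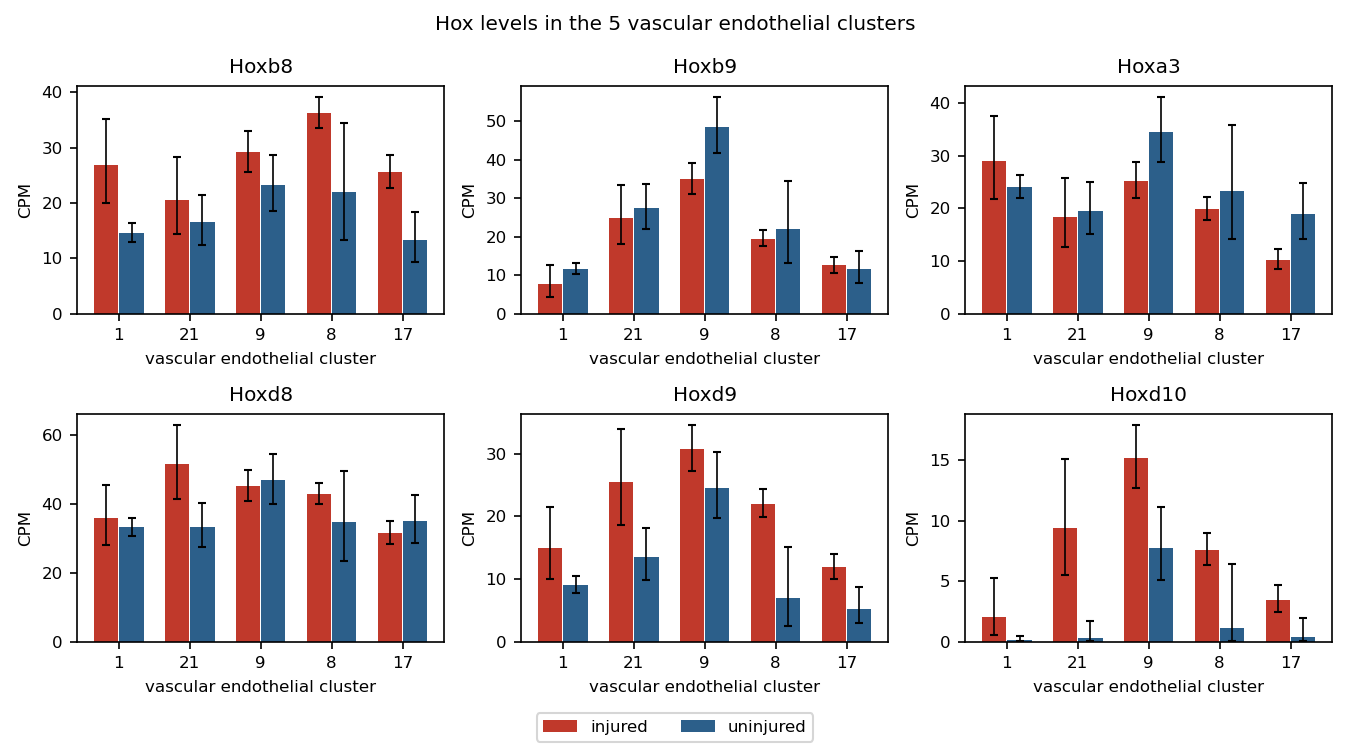
Level in CPM of 6 Hox genes in vascular endothelial clusters 1 (capillary genes), 21 (arterial genes), 9 (venular genes), 8 (Plvap and Aplnr) and 17 (cycling). Injured bars stand left of uninjured bars, and error bars are 95% exact Poisson intervals for counting error. Hoxd10 is highest in cluster 9 in both libraries, and Hoxb9 is highest in cluster 9 in both.

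Vessel types also differed in Hox level. The venular cluster 9 held the most Hoxb RNA in both libraries, 245 CPM in injured and 280 CPM in uninjured cells, against 196 and 170 CPM in the capillary cluster 1. Hoxb9 had 35.0 CPM in injured and 48.6 CPM in uninjured cells of cluster 9 and 7.73 and 11.7 CPM in cluster 1. Hoxa9 was highest in the arterial cluster 21, with 23.3 and 11.4 CPM, against 8.76 and 3.85 CPM in the capillary cluster.

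In lymphatic endothelium 15 members were eligible and 0 passed 2-fold, against 12.7% higher and 12.8% lower of 10676 genes. The median log2 ratio was -0.46 over the members and -0.00 over all genes. The nearest were Hoxb3, with 17.98 CPM in injured and 35.1 CPM in uninjured cells (ratio 0.512, 0.355 to 0.737), Hoxb4, with 9.61 and 18.8 CPM, and Hoxb8, with 10.9 and 5.59 CPM (35 and 11 UMIs, ratio 1.94, 0.963 to 4.23). Hoxd8, Hoxd9 and Hoxd10 had ratios of 0.702, 0.644 and 0.727. In Schwann cells 3 members were eligible, 1 was higher (Hoxb7, 24 and 8 UMIs, ratio 2.38, 1.03 to 6.13) and 0 lower, against 13.6% higher and 11.7% lower of 11094 genes. In immune cells Hoxb4 alone was eligible and did not pass 2-fold (ratio 0.925, 0.714 to 1.21), against 4.53% higher and 5.34% lower of 10133 genes. Injured immune cells lay mostly in cluster 0 (1243 cells, monocyte markers) and cluster 3 (993 cells, neutrophil markers), and uninjured ones in cluster 4 (338 cells, macrophage markers).

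Other genes of the positional system were read in mesenchymal cells by the same rule. The TALE homeodomain proteins Pbx, Meis and Pknox bind DNA with Hox proteins. Of 9 such genes 8 were eligible and 0 passed 2-fold, with Meis2 at 61.2 CPM in injured and 36.1 CPM in uninjured cells. Of the hindlimb genes, Pitx1 held 16.8 and 11.7 CPM and Tbx4 2.60 and 5.72 CPM, while the forelimb gene Tbx5 held 0.949 and 1.17 CPM. Tbx4 was highest in uninjured satellite cells, at 13.5 CPM. Among 23 other limb and positional transcription factors 14 were eligible, 3 were higher and 1 was lower. Irx5 held 9.92 and 0.989 CPM, En1 27.5 and 7.31 CPM, Emx2 8.59 and 3.74 CPM, and Msx1, lower in injury, 10.4 and 44.2 CPM. Of 10 genes that flank the clusters or regulate them 5 were eligible and 1 was higher, Skap2, which flanks the Hoxa cluster, with 50.5 and 16.8 CPM. Of 10 noncoding RNAs of the clusters 3 were eligible, 1 was higher and 1 lower. Hotairm1 of the Hoxa cluster held 12.2 CPM in injured and 4.84 CPM in uninjured cells, and Hoxd3os1 10.4 and 23.7 CPM. Of 17 Polycomb and trithorax genes, which keep Hox genes silent or active, 14 were eligible and 1 was lower, Ezh1, with 13.6 and 43.2 CPM. Ezh2, the other methyltransferase of Polycomb complex PRC2, held 44.8 and 34.9 CPM.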

How the data were processed

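The labels and the submitters' processing notes give droplet 3′ libraries (10x Genomics v2 reagents) processed with Cell Ranger 5.0.1 against mm10. The authors deposited raw UMI counts for each gene and barcode, with no normalization. No source used here gives the strand setting or the annotation release of the counting.

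Barcodes under 500 genes or over 10% mitochondrial UMIs were left out. Cells with a Scrublet doublet score above 0.2 (215 of 9366 injured, 60 of 4760 uninjured) were removed, at a limit set after the scores were seen. Both libraries were clustered together (scanpy 1.11.5, 2000 variable genes without Hox genes, 30 components, 15 neighbours, Leiden modularity, resolution 0.8), giving 29 clusters. Clusters were named from 22 marker lists. After the data were seen, haemoglobin genes were given no score, and a cluster whose second list, of another class, reached 0.5 of the best score stayed unnamed (cluster 12). Shallow cluster 14 also stayed unnamed. The 290 injured and 421 uninjured unnamed cells entered no class.

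UMIs were summed per class and library and scaled to CPM of the class. With 1 library per group no test was run. Exact Poisson, binomial and conditional intervals (95%) cover counting error only, as does the limit of 3 counts for a count of 0. Ratios used CPM + 1 for the 2-fold rule and plain CPM otherwise. Genes outside the 39 were named when past 2-fold in mesenchymal cells at a mean of 10 CPM or more, up to 12. Irx5, Emx2, Hotairm1 and Ezh2 fall outside that rule and were chosen after their values were seen. Meis2, Pitx1, Tbx4, Tbx5, Vegfd and Hoxa11os are given as context. Interval code was checked on simulated counts. The members and lists were chosen with earlier results of these data known. Some single genes are not reported here. Alternatives are given in the closing section.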

Additional observations from a re-analysis of the deposited data

Results flagged for a closer look

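Hoxd9 had ratios on opposite sides of 1 in different classes. Its ratio of CPM, injured over uninjured, was 1.91 in vascular endothelial cells and 0.399 in mesenchymal, 0.364 in mural and 0.644 in lymphatic endothelial cells. Within the mesenchymal clusters held by both libraries it was 1.41 in cluster 6 and 1.81 in cluster 25, which rests on 6 injured and 2 uninjured UMIs. The difference between classes was not tested. Hoxa3 had a ratio of 1.86 in mural cells and 0.623 in lymphatic endothelial cells, and this difference was not tested either. Each of these class ratios was past 1.5-fold with a counting interval on its side of 1.

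The unnamed cluster 12 (122 injured and 278 uninjured cells), which holds markers of pericytes and of vascular endothelium, carried both the Hoxb set of vascular endothelial cells and the Hoxc set of mural cells. Its Hoxb sum was 163 CPM in injured and 150 CPM in uninjured cells, and its Hoxc sum 58.8 and 43.9 CPM. The cells' median depth was 1.85 times that of their own libraries.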

How the results depend on the processing

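No paired analysis was possible because each group is 1 library. The count of members past 2-fold was 2 in mesenchymal, 4 in mural, 0 in vascular endothelial, 0 in lymphatic endothelial, 1 in Schwann and 0 in immune cells. In mesenchymal cells it was 0 with a pseudocount of 5 CPM, 1 with median-of-ratios scaling, 0 when cells were chosen by marker gates per cell, 0 without cluster 13, 1 within cluster 6 and 6 within cluster 25. In mural cells it was 2 with a pseudocount of 5 CPM, 7 at a mean of 1 CPM or more, 8 with no filter, 2 within cluster 10, and 13 when each library was clustered alone, where 6 were higher and 7 lower. In vascular endothelium it was 1 at a mean of 1 CPM or more, with no filter, as a mean over cells and without cluster 1 (Hoxd10 each time). It was also 1 among cells that held Xist but no Y-linked UMI (Hoxb8) and within clusters 1, 17 and 21, and 2 with marker gates and within cluster 8. In lymphatic endothelium it was 1 at a mean of 1 CPM or more or with no filter, and 2 as a mean over cells. In Schwann cells it was 0 with a pseudocount of 5 CPM or as a mean over cells, 4 at a mean of 1 CPM or more and 6 with no filter. In immune cells it was 1 within cluster 11. Shares of all genes past 2-fold were computed only for the classes and the settings whose shares are given in the sections above. Counts under the other settings have no such share beside them, so they are not read as results about the members.

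Some directions turned. The log2 ratio of Hoxd11 in mesenchymal cells was 0.27 with marker gates, 0.30 without cluster 13, 0.72 within cluster 6 and 1.25 within cluster 25. That of Hoxd9 was 0.46 within cluster 6 and 0.64 within cluster 25, and that of Hoxa10 in mural cells was 0.0622 when each library was clustered alone. Marker gates also moved the Hoxd sum of mesenchymal cells to a log2 ratio of -0.0784, against -0.999 in the clusters. It was -0.91 in the cells holding Xist alone and -1.12 in those holding Y-linked UMIs alone. The Hoxc sum of mesenchymal cells was -0.14 in the clusters, -0.21 with gates, 0.0912 in the Xist cells and -0.37 in the Y-linked cells. In vascular endothelium the Hoxb sum was 0.11, with 0.17, 0.19 and 0.0608 under the same 3 settings and 0.18 at up to 20% mitochondrial UMIs. The Hoxc sum of mural cells was 0.25, and 0.52 at up to 20%.

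The Hoxb and Hoxc division kept its direction with marker gates, as a mean over cells and with doublets kept. The log2 ratio of Hoxb, vascular over mesenchymal, was 6.37 in the injured library, with 7.16 under gates, 6.78 as a mean over cells and 5.44 with doublets kept. In the uninjured library it was 6.91, with 6.19 as a mean over cells and 5.97 with doublets kept. For Hoxc it was -5.25 in the injured library, with -6.54 under gates and -6.02 with doublets kept, and -6.63 in the uninjured library, with -4.09 under gates. Thinned to 2000 UMIs, Hoxb was found in 31.7% of injured and 28.1% of uninjured vascular cells and Hoxc in 17.1% and 16.2% of mesenchymal cells.

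Over 63 values of single members and 1062 comparisons, 855 stayed within their counting interval, 200 moved beyond it, and 7 that were past 2-fold turned direction as given above. The 855 include comparisons that could not move. Changing the minimum level alters which members are eligible but no ratio, so a mean of 1 CPM or more and no filter gave 63 unmoved values each. Keeping Hox genes in the clustering left every class at the same size and also gave 63. Of the 16 values within vascular cluster 1, 12 moved and 4 did not. The settings that leave out clusters 1 and 13, count cluster 12 as mural or drop shared barcodes were added after the data were seen. Classes under 50 cells gave no value. The cause of these changes was not tested. The minimum mean of 5 CPM is a chosen limit, and the number of UMIs it stands for differs by class. In the small classes members under it rest on few UMIs.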
